A study of Mus musculus with 15 samples.

Results

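Alveolar macrophages are the resident phagocytes of the air spaces. They clear inhaled particles and used surfactant, and they carry a set of transcripts that other lung cells express little or not at all. GM-CSF from the alveolar epithelium induces the nuclear receptor PPARG in them, which maintains their lipid-handling state. After injury with bleomycin, which breaks DNA and leads to scarring of the lung, resident cells can be lost and monocyte-derived macrophages enter the tissue.

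The set described here holds 7 of the 33340 genes in the count table, all of them known as alveolar macrophage genes of the mouse: Krt79, Marco, Fabp1, Siglecf, Pparg, Atp6v0d2 and Plet1. Krt79 was chosen because its measured fall at day 21 against day 0 was among the largest in the table, where it ranked 4 of 17457 genes tested. The other genes were added as alveolar macrophage genes. Values of day 21 against day 0 are therefore given as a description, with no p for these genes. All 7 genes passed the filter on low counts. Fabp1 ranked 6 by the same measure, Siglecf 635 and Plet1 3633, and the remaining genes lay further down.

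RNA-seq was performed on whole lungs of male C57BL/6 mice aged 10 to 12 weeks, of no stated genetic modification. The later groups received bleomycin once into the trachea at 5 U/kg and were taken at day 7 (n = 4), day 14 (n = 4) and day 21 (n = 3), while the day 0 group (n = 4) was titled as control. The series description gives 3 replicates per time point, and the numbers here follow the titles. Day 0 replicate 4 was titled as control too, although bleomycin stood in its treatment field, and the title was followed here. The study's text calls the replicates biological, but the labels did not say whether they were separate mice, so p-values measure the spread between these samples. Libraries held 15652008 to 18020661 counts and 22100 to 23970 detected genes, and mitochondrial genes took 2.03% to 4.22% of the counts. That share was 2.03% to 2.31% in day 0 replicates 1 and 2, all day 7 libraries and day 14 replicate 1, and 2.66% to 4.22% in the others. The labels named no batch. In RNA from whole lung, fewer cells of a type and less RNA per cell cannot be told apart.

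The 250 bases before the RefSeq start site of Krt79 and Fabp1 are shown because these were the genes of the set that fell at both day 7 and day 14. They come from RefSeq on the GRCm38.p6 build and are printed 5′ to 3′ in the direction of transcription, Krt79 from chr15:101940325-101940574 on the minus strand and Fabp1 from chr6:71199629-71199878 on the plus strand. Capitals mark matches to 4 motifs on either strand.
Krt79: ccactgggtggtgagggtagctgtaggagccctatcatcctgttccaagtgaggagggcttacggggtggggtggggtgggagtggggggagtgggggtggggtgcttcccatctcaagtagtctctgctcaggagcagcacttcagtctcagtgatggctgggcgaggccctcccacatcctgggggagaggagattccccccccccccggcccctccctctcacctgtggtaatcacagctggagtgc
Fabp1: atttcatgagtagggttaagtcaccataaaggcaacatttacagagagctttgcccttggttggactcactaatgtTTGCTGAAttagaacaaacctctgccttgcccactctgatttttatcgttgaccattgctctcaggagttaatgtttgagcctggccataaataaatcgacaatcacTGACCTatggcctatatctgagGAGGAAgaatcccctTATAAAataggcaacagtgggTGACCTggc

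The first motif searched was AGGTCA, the half-site that nuclear receptors such as PPARG bind beside a partner. The second was GAGGAA, the core of sites bound by PU.1, a factor that all macrophages need. A C/EBP pattern, for factors active in myeloid and liver cells, was written as TTGCNNAA. The last was the TATA box that sets the start of transcription in some promoters, written as TATAAA. No match lay in the Krt79 window, whose 300 bases also take in the first 50 after the start. Fabp1 had the nuclear receptor half-site on the opposite strand at -67 to -62 and again at -9 to -4, the PU.1 core at -45 to -40, the C/EBP pattern at -174 to -167 and the TATA box at -30 to -25, counted from the start site, with no overlap between them. Of 32851 RefSeq promoter windows of the same length, 16.3% held the half-site, 28.3% the PU.1 core, 10.8% the C/EBP pattern and 13.6% the TATA box. These matches describe letters and are not evidence of binding. RefSeq windows were found for 6 of the 7 genes (8 windows, since Pparg has several starts), and Atp6v0d2 had no entry.

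The 7 genes did not move as one group. Krt79 and Fabp1 fell at day 7 and at day 14 against day 0, Krt79 fell further from day 7 to day 14, Atp6v0d2 rose at day 14, Siglecf was low in the day 21 libraries, Pparg and Plet1 were not called in any comparison, and the level of Marco varied between libraries of the same day. Over the 15 libraries, the Pearson correlation of log2 CPM between members had a median of 0.136 over 21 pairs and ran from -0.86 to 0.92. As a correlation of deviations from the day means, its median was 0.333 (range -0.12 to 0.76). Members of a pair share libraries and their composition, so these values are descriptions.

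**Figure D1:**
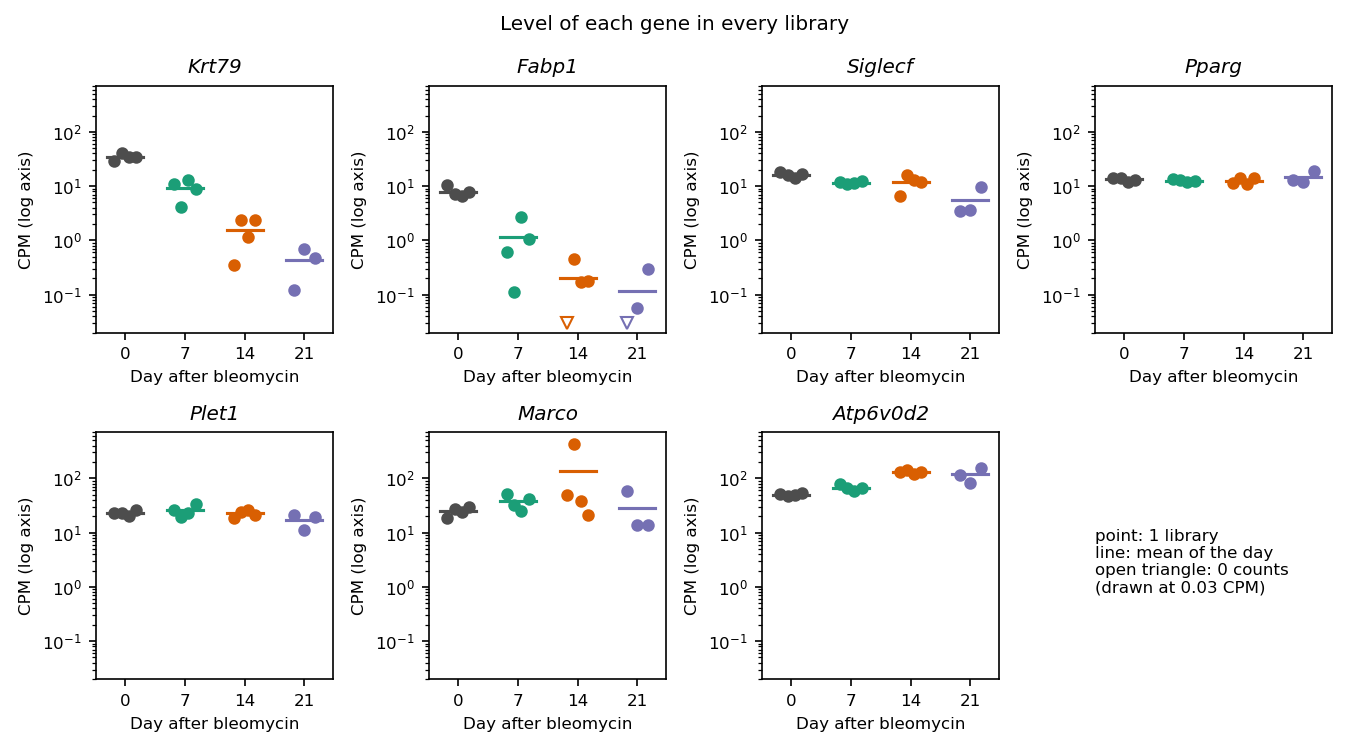
Level of each of the 7 genes in every library, in CPM on a log axis, by day after bleomycin. Each point is 1 library, lines are means of the day, and open triangles are libraries with 0 counts, drawn at 0.03 CPM; Krt79 and Fabp1 lie below day 0 in every later library, with overlap between days 14 and 21 for both and between days 7 and 14 for Fabp1, Atp6v0d2 steps up to day 14 with a day 21 range that overlaps it, and 1 day 14 library holds 434.1 CPM of Marco.

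Krt79 (ENSMUSG00000061397, chr15:101929332-101940324, minus strand) encodes a type II keratin, an intermediate filament protein whose transcript marks alveolar macrophages in mouse lung. In CPM, counts scaled to the TMM-adjusted library size, its day 0 libraries held 28.9, 41.3, 34.1 and 35.1. At day 7 the values were 10.99, 4.07, 13.0 and 8.74 CPM. At day 14 they were 0.354, 2.36, 1.14 and 2.35 CPM. Every day 7 library lay below every day 0 library, and every day 14 library lay below every day 7 library.

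Against day 0, Krt79 was 3.78-fold lower at day 7 (log2 fold change -1.92, SE 0.39, adjusted p = 0.00308) and 22.5-fold lower at day 14 (log2 fold change -4.49, SE 0.46, adjusted p = 6.36e-06) in edgeR's quasi-likelihood test, adjusted by Benjamini-Hochberg over all genes tested. Both comparisons use the day 0 libraries that entered the choice of Krt79. Day 14 against day 7 shares no library with that choice, and there Krt79 was 5.94-fold lower (log2 fold change -2.57, SE 0.44, adjusted p = 0.00676). This fall was called under all 18 alternatives run for it, with log2 fold changes from -2.90 to -2.24. They included the mitochondrial share as a covariate, but no fit restricted to libraries of like share was run for this comparison. All day 7 libraries had a share under 2.5%, and of day 14 only replicate 1 did. For day 7 against day 0, libraries with a mitochondrial share under 2.5% were day 0 replicates 1 and 2 and all of day 7. Among them the log2 fold change was -1.95 for Krt79 (adjusted p = 0.00670) and -2.95 for Fabp1 (0.0186). For day 14 against day 0, those over 3.5% were day 0 replicates 3 and 4 and day 14 replicates 2, 3 and 4. Among these, log2 fold changes were -4.16 for Krt79 (adjusted p = 0.000245) and -4.72 for Fabp1 (0.000527).

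At day 21 the libraries held 0.124, 0.684 and 0.471 CPM of Krt79, from 2, 12 and 8 counts. The mean was 0.426 ± 0.283 CPM (SD, n = 3), and the fitted log2 fold change against day 0 was -6.31. The day 21 and day 14 ranges overlapped, and the difference between them was not called (log2 fold change -1.82, SE 0.63, adjusted p = 0.388). Against day 7, Krt79 was 21.0-fold lower at day 21 (adjusted p = 0.000778), a comparison that uses the day 21 libraries that chose it.

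Fabp1 (ENSMUSG00000054422, chr6:71199827-71205023, plus strand) encodes a cytosolic fatty acid binding protein best known from liver. Its day 0 libraries held 10.3, 7.26, 6.48 and 7.64 CPM. At day 7 the values were 0.623, 0.112, 2.75 and 1.07 CPM. At day 14 they were 0, 0.446, 0.172 and 0.181 CPM, where the library at 0 allows up to 0.177 CPM by a floor of 3 counts, which like every floor here covers counting error alone. All day 7 and day 14 libraries lay below all day 0 libraries, while day 7 and day 14 overlapped.

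Fabp1 was lower than at day 0 at day 7 (log2 fold change -2.79, SE 0.65, adjusted p = 0.00676) and at day 14 (log2 fold change -5.28, SE 0.80, adjusted p = 0.000169). The step from day 7 to day 14 was not called (log2 fold change -2.49, SE 0.82, adjusted p = 0.0766). That step passed the test in DESeq2 (adjusted p = 0.0145), with no filter on low counts (0.0297) and without day 7 replicate 2 (0.0360), the library with the lowest day 7 value. Fabp1 passed the filter on low counts through its day 0 libraries, and with the day 7 and day 14 libraries alone it was filtered out and gave no value, so little is read from this step. At day 21 the libraries held 0, 0.0570 and 0.294 CPM, with 0 allowing up to 0.186 CPM. Against day 7 the fall was called (log2 fold change -3.19, SE 0.99, adjusted p = 0.0454) in a comparison that shares the day 21 libraries, and 8 of 17 alternatives kept the call. It was lost without day 7 replicate 1 (adjusted p = 0.0596), 3 (0.143) or 4 (0.0712) and without day 21 replicate 1 (0.136) or 2 (0.132). Day 21 against day 14 was not called (log2 fold change -0.70, SE 1.19, adjusted p = 0.875), with 0 to 7 counts in each of these libraries.

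Siglecf (ENSMUSG00000039013, chr7:43351341-43359531, plus strand) encodes a sialic acid binding surface receptor that is used to gate alveolar macrophages and is also carried by eosinophils. The day 0 libraries held 18.2, 16.0, 14.0 and 16.6 CPM. At day 7 they held 11.9, 10.99, 11.5 and 12.2 CPM, and at day 14 6.56, 16.3, 13.2 and 12.01 CPM. The day 7 libraries were all below day 0, but the log2 fold change of -0.47 (SE 0.29) was not called (adjusted p = 0.239). Day 14 overlapped both earlier days, with log2 fold changes of -0.43 against day 0 (adjusted p = 0.268) and 0.04 against day 7.

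The day 21 libraries held 3.46, 3.70 and 9.53 CPM of Siglecf. All were below every day 0 and every day 7 library. The log2 fold change against day 0 was -1.54. Against day 7 it was -1.06 (SE 0.32, adjusted p = 0.0428). This call was lost without any 1 of the day 7 libraries (adjusted p = 0.0595 to 0.0805), with log2 fold changes of -1.09 to -1.04 close to the full value. It was also lost without day 21 replicate 1 (-0.83, adjusted p = 0.150) or replicate 2 (-0.86, adjusted p = 0.143), and kept without replicate 3 (-1.73, adjusted p = 0.00396). Against day 14 it was not called (log2 fold change -1.11, SE 0.32, adjusted p = 0.297), and it was called without day 14 replicate 1 (adjusted p = 0.0496) or without day 21 replicate 3 (0.0327). The defining eosinophil markers Epx and Ccr3 reached at most 6 and 9 counts in any library, Prg2 34 and Il5ra 21. Il5ra lay below day 0 in every day 21 library, at 0.277 CPM against 0.978 CPM (log2 fold change -1.79, SE 0.66, adjusted p = 0.0522 by edgeR), while Prg2 had a log2 fold change of 1.18 (SE 1.14, adjusted p = 0.471 by edgeR). Of these 2 markers, DESeq2 called 1 lower and 0 higher at day 21 against day 0. The part of eosinophil transcripts in the Siglecf values was not tested.

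Pparg (ENSMUSG00000000440, chr6:115360951-115490399, plus strand) encodes the nuclear receptor of the alveolar macrophage programme, which adipocytes and epithelial cells also express. Its libraries held 14.4, 14.2, 12.1 and 12.7 CPM at day 0, 13.5, 12.8, 11.8 and 12.4 CPM at day 7, 11.6, 14.0, 11.04 and 13.9 CPM at day 14, and 12.9, 11.9 and 18.8 CPM at day 21. All days overlapped. The log2 fold change was -0.08 (SE 0.15) at day 7 and -0.08 (SE 0.15) at day 14, with adjusted p of 0.732 and 0.722. The overlapping antisense gene Gm44079 held at most 1 count.

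Plet1 (ENSMUSG00000032068, chr9:50494525-50505482, plus strand) encodes a surface protein anchored by a lipid tail. It held 22.8, 23.2, 20.2 and 26.2 CPM at day 0, 26.5, 19.5, 22.7 and 33.6 CPM at day 7, 18.3, 24.2, 26.3 and 21.3 CPM at day 14, and 20.7, 11.2 and 19.5 CPM at day 21. The days overlapped, and 1 day 21 library was the lowest of all. Its log2 fold changes were 0.15 (SE 0.19) at day 7 and -0.04 (SE 0.20) at day 14 against day 0. An antisense gene, Plet1os, held 37 to 78 counts per library, and since the strand setting of the counting was not stated, reads of the pair may not be fully separated.

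Marco (ENSMUSG00000026390, chr1:120474538-120505024, minus strand) encodes a scavenger receptor that binds bacteria and particles. Its day 0 libraries held 19.0, 26.9, 24.3 and 29.7 CPM and its day 7 libraries 52.6, 31.8, 25.4 and 41.3 CPM. At day 14 they held 49.0, 434.1, 37.9 and 21.1 CPM. At day 21 they held 58.5, 13.8 and 13.9 CPM. The day 14 value of replicate 2 stood far above the rest, and apart from it the days overlapped.

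Marco was called higher at day 14 than at day 0 (log2 fold change 2.44, SE 0.77, adjusted p = 0.0236), but without day 14 replicate 2 the log2 fold change was 0.50 (adjusted p = 0.429). The call was also lost without day 0 replicate 1 (adjusted p = 0.0633), 2 (0.0523) or 3 (0.0541), where the log2 fold change stayed at 2.30, 2.45 and 2.40. Day 7 did not differ by the test (log2 fold change 0.60, SE 0.74, adjusted p = 0.591). Over all 17457 genes, Marco had the widest gap between day 14 replicate 2 and the next day 14 library, at 3.14 on the log2 scale, followed by Ear6 at 2.63.

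Atp6v0d2 (ENSMUSG00000028238, chr4:19876841-19922605, minus strand) encodes a tissue-restricted subunit of the membrane part of the V-ATPase, the proton pump that acidifies lysosomes. Its libraries held 51.6, 46.3, 49.5 and 53.3 CPM at day 0 and 79.8, 66.8, 57.6 and 66.1 CPM at day 7. At day 14 they held 133.3, 140.4, 118.8 and 132.1 CPM. Each day 7 library was above each day 0 library, and each day 14 library above each day 7 library, an order opposite to that of Krt79.

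Atp6v0d2 was 2.61-fold higher at day 14 than at day 0 (log2 fold change 1.39, SE 0.15, adjusted p = 1.26e-05) and 1.94-fold higher than at day 7 (log2 fold change 0.96, SE 0.15, adjusted p = 0.00486). Day 7 against day 0 was not called (log2 fold change 0.43, adjusted p = 0.0512). At day 21 the libraries held 116.9, 82.3 and 155.1 CPM, all above day 7, with a log2 fold change of 0.81 (SE 0.16, adjusted p = 0.00735) that fell under the 1.5-fold threshold without day 21 replicate 3 (log2 fold change 0.53).

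**Figure D2:**
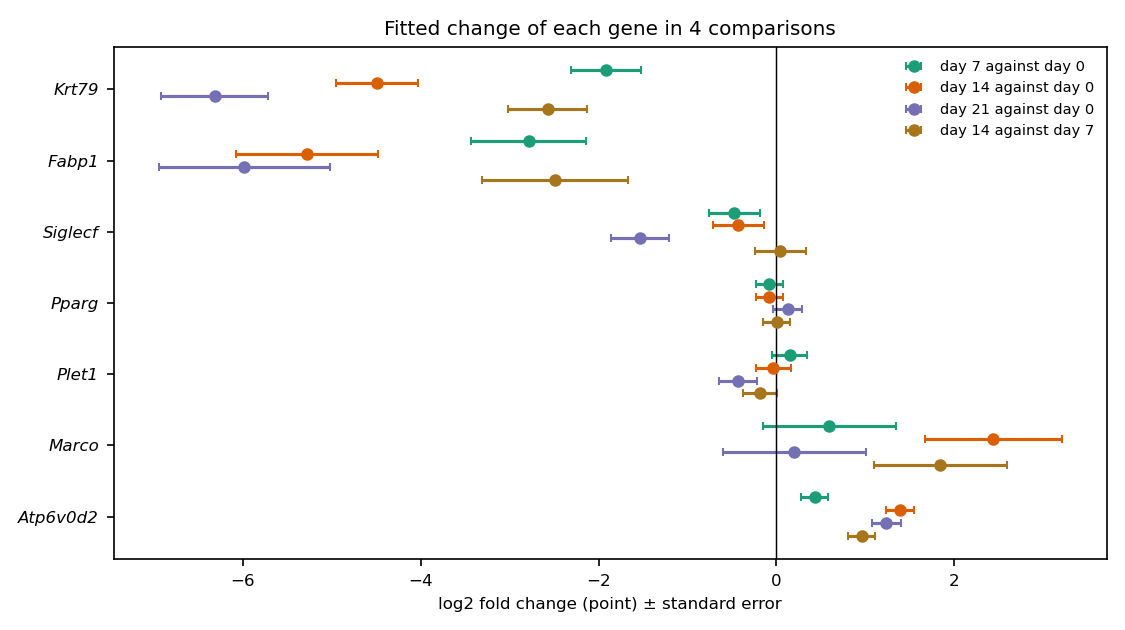
Fitted log2 fold change of each gene (points) with its standard error (bars) in 4 comparisons; day 21 against day 0 chose Krt79 and is shown as a description. Krt79 and Fabp1 lie left of 0 in all of them, Pparg and Plet1 stay near 0, and Atp6v0d2 lies right of 0.

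A gene was called where its adjusted p was below 0.05 and its fold change exceeded 1.5. At day 7 against day 0, 2 of the 7 genes were called lower and 0 higher, where 7.36% of all genes tested were called lower and 8.78% higher. By edgeR at an unadjusted p under 0.05, 1 gene was higher at day 7 (Atp6v0d2), and DESeq2 and limma voom called 0 higher. At day 14 against day 0, 2 were lower and 2 higher, against 11.2% and 12% of all genes. Between day 7 and day 14, 1 was lower (Krt79) and 1 higher (Atp6v0d2), against 3.23% and 2.77%. At day 21 against day 7, 3 were lower and 1 higher, against 4.34% and 5.2%. The counts of day 7 and day 14 against day 0 share the day 0 libraries with the choice of Krt79. That of day 21 against day 7 shares the day 21 libraries. The calls of Krt79 in these counts are thus tied to the choice, while day 14 against day 7 shares no library with it. At day 21 against day 0, which the choice used, 3 genes including Krt79 were past the same thresholds as lower and 1 as higher, beside 10.1% and 12.4% of all genes, and nothing is read from that count.

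For day 21 against day 14, 0 of the 7 genes were called by edgeR, by DESeq2 or by limma voom, and 0% of all genes were called by edgeR. At an unadjusted p under 0.05, 3 of the genes passed (Krt79, Marco and Siglecf) beside 9.82% of all genes. This comparison shares the day 21 libraries with the choice of Krt79. Groups that did not overlap were counted in the same way. At day 7 against day 0, 4 of the 7 genes had no overlap (Krt79, Fabp1 and Siglecf below, Atp6v0d2 above), where 30.8% of all genes did. This count and that of day 14 against day 0 share the day 0 libraries with the choice of Krt79. At day 14 against day 0 the count was 3, against 31.1% of all genes, at day 14 against day 7 it was 2, against 16.3%, and at day 21 against day 0, which the choice used and from which nothing is read, it was 4, against 35.5%.

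Per kb of merged exon length, the order of levels changed between days. At day 0, Atp6v0d2 led with 18.5 ± 1.11 CPM per kb (SD, n = 4), followed by Fabp1 with 14.3 ± 2.995, Marco with 13.0 ± 2.38 and Plet1 with 11.9 ± 1.26. Neighbours among these overlapped. Krt79 followed with 7.33 ± 1.07 CPM per kb and no overlap with Plet1, then Siglecf with 5.80 ± 0.63, which overlapped Krt79, and Pparg with 4.52 ± 0.38, which overlapped neither. By day 14, Fabp1 with 0.361 ± 0.333 and Krt79 with 0.327 ± 0.207 CPM per kb were the lowest, overlapped each other, and lay below Pparg without overlap. At day 21 (n = 3), Atp6v0d2 was at 43.5 ± 13.4 CPM per kb and Krt79 at 0.0896 ± 0.0595.

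Genes listed as pan-macrophage, found in macrophages of any origin, were mostly higher where Krt79 and Fabp1 fell. Of the 10, 6 were called higher at day 7 and 7 at day 14 against day 0, with 0 lower, and the median log2 fold change at day 14 was 1.11 where that of all genes was 0.02. Cd68, a lysosomal membrane protein, rose by a log2 fold change of 2.00 (SE 0.20), the Fc receptor Fcgr1 by 2.13 (SE 0.21), and the lysosomal protease Ctsd by 1.96 (SE 0.16). The summed level of the 10 genes ran from 1105 to 1285 CPM at day 0 and from 2087 to 2753 CPM at day 14. Lamp1 and Ctsd, lysosomal genes that many cell types express, held much of that sum. Without them, 5 of 8 genes were called higher at day 7 and 6 at day 14, and the sum ran from 438 to 492 CPM at day 0 and from 742 to 1155 CPM at day 14.

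Set against the mean log2 CPM of these 10 genes in the same library, most of the 7 genes were lower than at day 0, as any gene of even level would be, since the reference genes rose. Krt79, Fabp1, Siglecf, Pparg and Plet1 were below their day 0 values in every day 14 library, with mean differences of -5.77, -5.96, -1.61, -1.20 and -1.16 on the log2 scale, and Atp6v0d2 was 0.27 above its day 0 mean with overlapping libraries. Marco was 0.26 above, with an SD of 1.83 over the day 14 libraries. The drop of Pparg and Plet1, whose own log2 fold changes were near 0, is thus that rise restated. Without Lamp1 and Ctsd in the reference, the day 14 difference was -5.75 for Krt79 and -5.95 for Fabp1. The ratio describes levels in whole lung and does not separate the number of macrophages from the RNA of each.

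**Figure D3:**
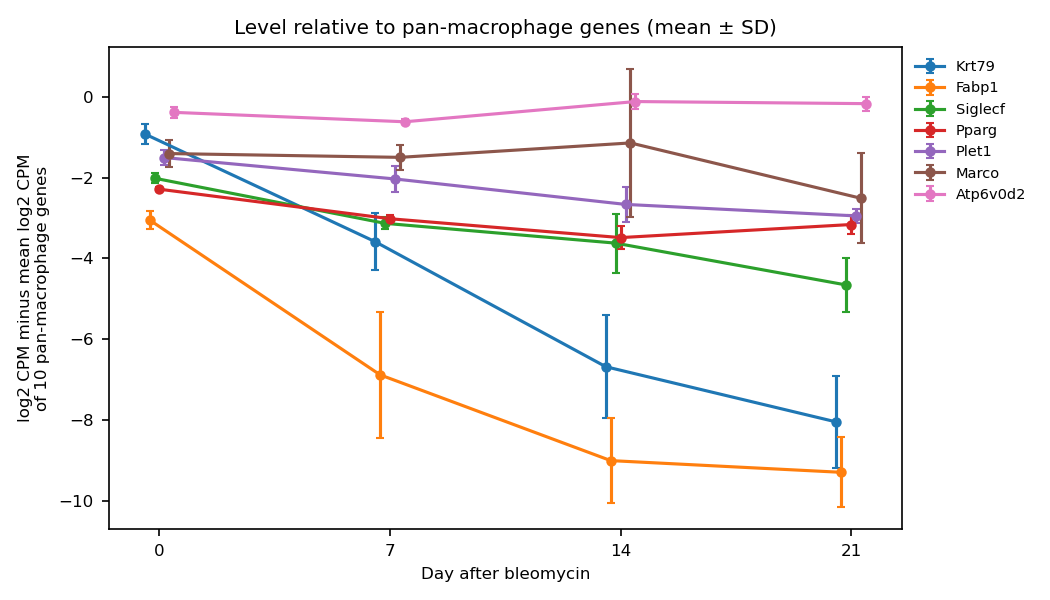
Level of each gene relative to pan-macrophage genes, as log2 CPM minus the mean log2 CPM of 10 pan-macrophage genes in the same library, by day after bleomycin. Points are means and bars SDs over the libraries of a day (n = 4, 4, 4 and 3). Krt79 and Fabp1 drop by over 5 log2 units by day 14, Pparg and Plet1 by about 1, and Atp6v0d2 stays near its day 0 value.

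Monocyte-derived and interstitial macrophage genes rose more. Of 14 tested, 10 were called higher at day 7 and 11 at day 14 against day 0, with 0 lower and their median at day 14 was 2.90 on the log2 scale. The macrophage elastase Mmp12 had a log2 fold change of 6.43 (SE 0.56), the matrix protein Spp1 5.15 (SE 0.46) and the lipid receptor Trem2 4.35 (SE 0.30) at day 14. The monocyte genes Ccr2 (0.30, SE 0.40) and Ly6c2 (-0.27, SE 0.31) were not called. The part of these cells in the levels of the 7 genes was not tested.

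Other alveolar macrophage genes also moved in both directions. Of 20 tested, 5 were called higher and 3 lower at day 7, and 8 higher and 3 lower at day 14 against day 0, and the median at day 14 was a log2 fold change of 0.50. At day 21 against day 0 the counts were 8 and 3. Those that fell at day 14 were Cidec, which coats lipid droplets (log2 fold change -3.08, SE 0.42), the eosinophil-associated ribonuclease Ear1 (-2.79, SE 0.36) and the carbonic anhydrase Car4 (-0.92, SE 0.23), which capillary endothelial cells also express. Among those that rose were the mannose receptor Mrc1 (1.75, SE 0.37), the coagulation factor F7 (1.58, SE 0.21) and the sialic acid receptor Siglec1 (1.57, SE 0.21). The part of other macrophages and other lung cells in the levels of this list was not tested. Ear1 belongs to a family of near-identical genes, and reads with several alignments were left out of the counting, so its level is uncertain.

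Cidec fell from 18.2 ± 0.88 CPM at day 0 to 6.50 ± 2.70 at day 7, 2.15 ± 1.10 at day 14 (SD, n = 4 each) and 0.985 ± 0.728 at day 21 (n = 3), and its fall from day 7 to day 14 was called (log2 fold change -1.59, SE 0.41, adjusted p = 0.0315). F7 went the other way, from 21.7 ± 4.25 CPM at day 0 to 64.7 ± 4.60 at day 14. In deviations from the day means over 15 libraries, Siglecf went with Cidec at r = 0.878 and with Ear1 at r = 0.861, Fabp1 with Cidec at r = 0.742, and Atp6v0d2 with F7 at r = 0.878. These genes were picked from the list after their values were seen.

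In whole lung, the genes of GM-CSF signalling and the PPARG programme were mostly not called lower at days 7 and 14. Of 12 tested, 3 were called higher and 0 lower at day 7, and 4 higher and 1 lower at day 14 against day 0. The receptor subunits Csf2rb2, Csf2ra and Csf2rb had log2 fold changes of 1.54 (SE 0.18), 1.07 (SE 0.14) and 0.78 (SE 0.17) at day 14, while the transducer Stat5b had -0.62 (SE 0.11). Without day 14 replicate 1, 0 genes of this list were called lower. At day 21 against day 7, 1 was called higher (Csf2rb2) and 1 lower, Csf2, the gene of GM-CSF (log2 fold change -1.68). Csf2 had means of 0.957 CPM at day 7 and 0.293 CPM at day 21, with at most 23 counts in any library. The part of macrophages in the levels of this list was not tested. Bhlhe40, a transcription factor, had 0.96 (SE 0.19), and its relative Bhlhe41 0.45 (SE 0.23), not called.

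PPARG lipid targets moved both ways. Of 8 tested, 1 was called higher and 2 lower at day 7, and 2 higher and 4 lower at day 14. Those called higher at day 14 numbered 1 without day 14 replicate 1 and 1 without replicate 2. At day 14 the peroxisomal thiolase Acaa1b had a log2 fold change of -3.24 (SE 0.35), Angptl4, a secreted lipase inhibitor, -0.96 (SE 0.27), and the fatty acid transporter Cd36 -0.80 (SE 0.15), beside Cidec. Lipoprotein lipase Lpl had 1.19 (SE 0.24) and the lipid droplet protein Plin2 0.61 (SE 0.15). Of 5 adipocyte markers tested of 6 listed, 0 were called at day 7 by edgeR, DESeq2 or limma voom, and 0 had an unadjusted p under 0.05. At day 14, 4 were called lower, with Adipoq at a log2 fold change of -5.07 (SE 1.28). Their summed level ranged from 6.08 to 46.2 CPM over the day 0 libraries and from 2.04 to 3.60 CPM over those of day 14, and its part in the levels of Pparg and the lipid genes was not tested.

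Among the other subunits of the V-ATPase few were called. Of 15 tested, 0 were called at day 7 by edgeR, DESeq2 or limma voom, with 8 higher and 1 lower at an unadjusted p under 0.05 in edgeR. At day 14, 2 were called higher: Tcirg1, the a3 subunit of the membrane part (log2 fold change 0.98, SE 0.16), and Atp6v0e (0.63, SE 0.13). Without day 14 replicate 2, 1 was called higher. All 15 values were above 0 at day 14, with a median log2 fold change of 0.39 and a highest value of 0.98, where Atp6v0d2 had 1.39. At day 7 against day 0 the highest value among them was 0.43, as for Atp6v0d2, and at day 14 against day 7 it was 1.10 (Atp6v0c), above the 0.96 of Atp6v0d2. Its widely expressed paralog Atp6v0d1 had 0.40 (SE 0.10) and did not pass the fold threshold.

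Tcirg1 and Atp6v0d2 are also known from osteoclasts, and genes listed as osteoclast markers rose in the same libraries. Of 5 osteoclast markers tested of 6 listed, 4 were called higher at day 7 and 5 at day 14, among them the acid phosphatase Acp5 (log2 fold change 2.29, SE 0.17) and the protease Ctsk (3.08, SE 0.35). The summed level of the list was 36.4 to 47.0 CPM at day 0 and 206 to 454 CPM at day 14. Most of it came from Ctsk and Acp5, with day 14 means of 216.7 and 71.9 CPM. Dcstamp and Ocstamp had day 14 means of 5.38 and 2.35 CPM. Which cells these transcripts came from was not tested. Oscar reached at most 8 counts in any library, and the mean of Calcr was 0.930 CPM at day 0 and 3.16 CPM at day 14.

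Family relatives of the 7 genes gave no common direction. Of 19 tested of 20 listed, 6 were called higher and 0 lower at day 7 by edgeR, where 3 were lower by DESeq2, 0 by limma voom and 3 at an unadjusted p under 0.05. At day 14, 6 were called higher and 3 lower. The scavenger receptor Msr1, of the family of Marco, had a log2 fold change of 3.71 (SE 0.38) at day 14, and Scara5 -1.81 (SE 0.40). Among sialic acid receptors Siglec1 rose and Siglecg had -1.17 (SE 0.42). The keratins Krt7 and Krt8, of simple epithelia, had 1.07 (SE 0.20) and 0.79 (SE 0.20) where Krt79 had -4.49. Among fatty acid binding proteins, Fabp7 was called higher at 5.50 (SE 1.30), a value that depends on the prior count since its day 0 mean was 0.0162 CPM, Fabp5 had 0.72 (SE 0.26), and Fabp4, which is also an alveolar macrophage and adipocyte gene, had 0.57 (SE 0.39), not called.

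**Figure D4:**
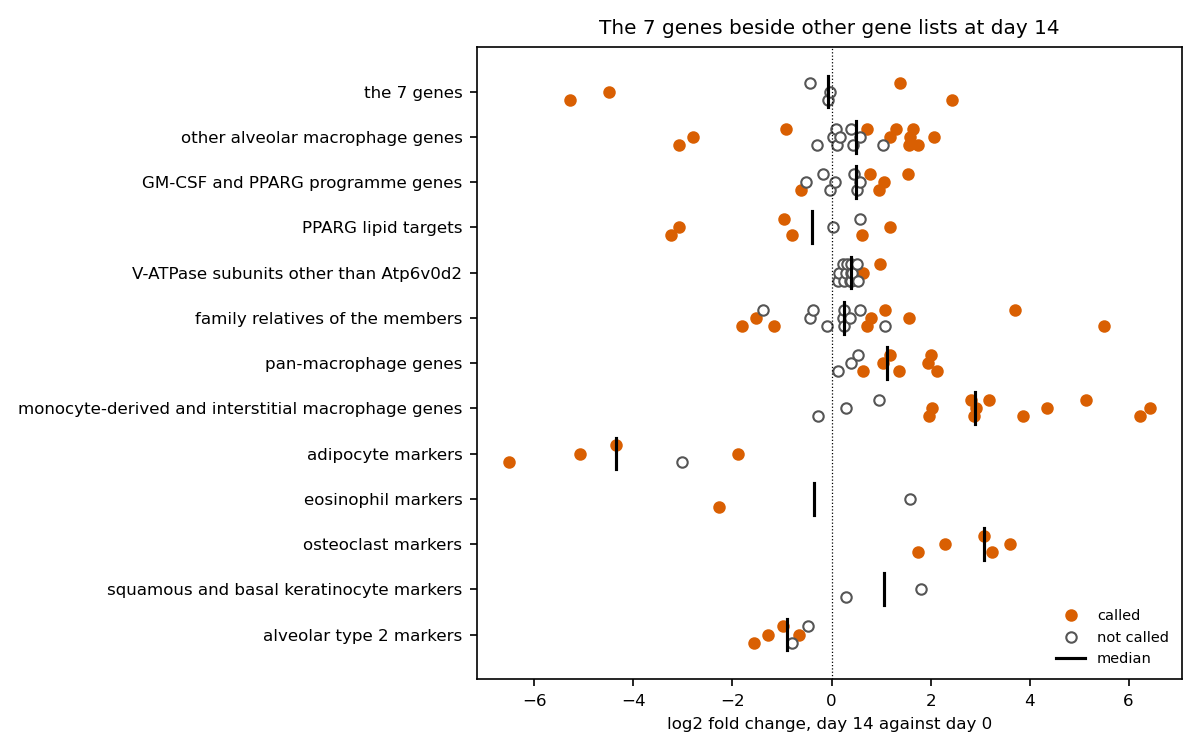
Log2 fold change at day 14 against day 0 of each gene (points) in the 7-gene set and in 12 other lists; filled points were called, open points were not, and black bars are list medians. The 7 genes span from -5.28 to 2.44, while pan-macrophage and monocyte-derived macrophage genes lie mostly right of 0 and alveolar type 2 markers left of it.

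Since keratins and Siglecf can also mark other cells, markers of those were read in the same libraries. Of 6 squamous and basal keratinocyte markers, Krt5, Krt17, Dsg3 and Krt6a were at 0 counts in all day 0 libraries, where Krt79 held 447 to 683 counts. Of the 2 tested, 1 was called higher at day 7 (Trp63) and 0 at day 14 against day 0. Their summed level at day 0 was 0.635 to 3.39 CPM and at day 14 2.12 to 9.63 CPM. Of 4 eosinophil markers, 2 were tested, and Il5ra was called lower at day 14 (log2 fold change -2.28, SE 0.63) from 0.978 ± 0.396 CPM at day 0, while Prg2 had a log2 fold change of 1.59 (SE 1.05) and was not called.

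The gene most like Krt79 over the 15 libraries, among 12243 genes with a mean of at least 5 CPM, was Sftpa1, the surfactant protein A gene of alveolar type 2 cells, with a Pearson r of log2 CPM of 0.980, and 0.915 for deviations from the day means. It was followed by Fgfr2 (r = 0.978), a growth factor receptor, Rmdn2 (0.977), the secreted phospholipase Pla2g1b (0.975) and Tmem205 (0.969). Sftpa1 went from 4121 ± 203 CPM at day 0 to 2559 ± 383 at day 7 and 1401 ± 580 at day 14, a 2.94-fold fall at day 14 (adjusted p = 0.000757), where Krt79 was 22.5-fold lower. These points share libraries, and the values are descriptions.

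Of 6 alveolar type 2 markers, 0 were called at day 7 by edgeR or limma voom, and 1 was lower by DESeq2 and 1 at an unadjusted p under 0.05. At day 14, 4 were lower than at day 0, at day 21 all 6 were, and their median at day 14 was a log2 fold change of -0.89. Without day 14 replicate 1, 2 were called lower, and without replicate 2, 3 were. Their summed level was 25740 to 35698 CPM at day 0, 16422 to 24891 at day 7, 6661 to 19545 at day 14 and 4261 to 8975 at day 21. The library lowest in Krt79, Fabp1 and Siglecf at day 14 (replicate 1) was also the one lowest in these markers (its mitochondrial share was 2.102%, where the rest of day 14 held 3.74% to 4.14%), and the day 7 library lowest in Krt79 and Fabp1 (replicate 2) was the lowest of its day in them. Within days, the median r of Krt79 was 0.768 with the 6 type 2 markers and -0.05 with the 20 other alveolar macrophage genes. Those 20 values ran from -0.824 (Mrc1) to 0.659 (Cidec), with Car4 at 0.646 and Ear1 at 0.628. The higher median with type 2 markers was not particular to Krt79. Siglecf had medians of 0.509 and 0.389 with the 2 lists, and Fabp1 0.432 and 0.174. The part of the epithelial change in the Krt79 values was not tested.

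**Figure D5:**
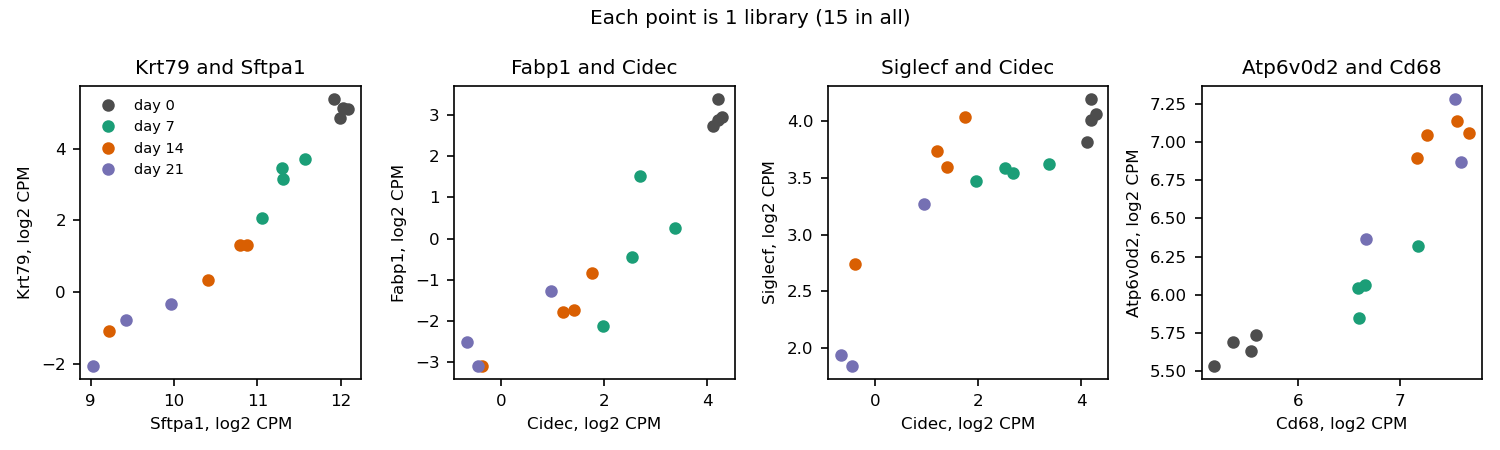
Log2 CPM (prior count 2) of a member against another gene in the 15 libraries, 1 point per library and 1 colour per day. Krt79 with Sftpa1 and Fabp1 with Cidec fall from day 0 to later days along 1 line, Siglecf with Cidec is high on both axes at day 0 and mixed between days 14 and 21, and Atp6v0d2 with Cd68 rises.

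The genes most like the mean standardised level of the 7 genes were Nop10 (r = 0.850), Lilra5 (0.849), Anapc11 (0.840), Rufy4 (0.838) and Rfc2 (0.828). None of these was called in any comparison except Rufy4, a gene of dendritic cell and macrophage lysosomes, at day 21 against day 0. The mean pools genes that moved in opposite directions.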

How the data were processed

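Whole-lung RNA-seq of 15 libraries was analysed. The authors deposited 1 table of raw read counts per Ensembl gene, not normalised; according to the study's methods and the submitters' processing notes, reads were aligned to mm10 with HISAT2 2.1.0 and counted with HTSeq 0.6.0, leaving out reads with several alignments, and DESeq2 1.40.2 is also named. The annotation release and strand setting were not given in the sources used here. Of 33340 genes, 450 had no count, and 33267 identifiers were matched to GENCODE M21 for symbols, coordinates and exon lengths.

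Groups came from the sample titles. Counts were tested with edgeR 4.0.16 in R 4.3.3 (filterByExpr by day, TMM, quasi-likelihood F-test, day as the only term, all 15 libraries, 17457 genes), with calls where the p adjusted by Benjamini-Hochberg was below 0.05 and the fold change exceeded 1.5. The common biological coefficient of variation was 22.8%. SEs are on the log2 scale, and log2 CPM used a prior count of 2. The scripts were tested on simulated counts first.

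The 7 genes and all gene lists were chosen with earlier results of these data known. Genes named were the 7 genes, list genes with the largest called changes at day 14 (at most 8 per list) with markers near 0, and the 5 genes most correlated with Krt79 and with the set's mean; any others were chosen after their values were seen. Lists are described by counts and medians with no set test. Alternatives were DESeq2 1.42.0, limma 3.58.1 (voom), total count and RLE scaling, other filters, the 2 groups alone, a replicate block, no fold threshold, mitochondrial share as a covariate, only libraries with a mitochondrial share under 2.5% (day 7 against day 0) or over 3.5% (day 14 against day 0), and leaving out each library. For day 21 against day 0, and for lists without day 14 replicate 1 or 2 or without Lamp1 and Ctsd, alternatives were added after seeing the data.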

Additional observations from a re-analysis of the deposited data

Results flagged for a closer look

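In the 4 day 14 libraries, the level of Marco in replicate 2 was 434.1 CPM, while the others lay between 21.1 and 49.0 CPM. The gap to the nearest library was 0.932 of the group's whole range, above Dixon's 95% critical value for 4 samples. Of 21 groups of 4 libraries (7 genes at 3 days), 1 was picked out in this way, where chance gives about 5% of groups.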

How the results depend on the processing

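Depth limits Fabp1 and Krt79 at the later days, where libraries held few counts. Whether the replicate numbers pair the samples was not settled. Over 21 pairs of same-numbered libraries of different days, deviations from the day means correlated at -0.21 to 0.43 (median 0.04), and 8 were over 0.1. Differently numbered pairs were not computed beside them, so these values cannot exclude a pairing. With the replicate block, 1 member was called higher at day 14 against day 0 instead of 2 (Marco was lost), and 2 instead of 3 were called lower at day 21 against day 7 (Fabp1 was lost); the other 8 counts were equal under the block, which was not run for day 21 against day 0.

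Of 180 counts of members called under alternatives, 160 kept the main value within 1.5 times, 15 were smaller and 5 larger. Members called higher at day 14 against day 0 numbered 1 with limma voom and with the libraries over 3.5% mitochondrial share, and 1 to 2 when libraries were left out. Members called lower at day 14 against day 7 numbered 2 with DESeq2 and with no filter, and 1 to 2 with a library left out. For day 21 against day 7, 1 was called lower with the mitochondrial covariate and with the 2 groups alone, and 1 to 3 with a library left out, where those called higher numbered 0 to 1. For day 21 against day 14, 0 to 1 were called lower with a library left out. The cause was not tested.

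Among single genes, sign changes concerned log2 fold changes that were not called. At day 14 against day 7, Pparg was at -0.01 with total count scaling, no filter and limma voom, at -0.00038 with the replicate block, and between -0.05 and 0.06 with a library left out, Siglecf was at -0.03 with limma voom and from -0.13 to 0.25 with a library left out, and Marco from -0.07 to 2.20. At day 14 against day 0, with the libraries over 3.5%, Pparg was at 0.06 and Plet1 at 0.03, and Plet1 ran from -0.12 to 0.03 with a library left out. Plet1 at day 7 against day 0 ran from -0.01 to 0.26, Pparg at day 21 against day 7 from -0.05 to 0.31 and against day 14 from -0.04 to 0.32, and Atp6v0d2 at day 21 against day 14 from -0.42 to 0.04. At day 21 against day 0, Marco ran from -0.88 to 0.49 and Pparg from -0.15 to 0.21 with a library left out, and leaving out day 21 replicate 3 gave log2 fold changes of -7.78 for Fabp1, -2.21 for Siglecf and 0.95 for Atp6v0d2.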
